A study of Mus musculus with 9 samples.

Results

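Transcripts of 9 complement genes were followed in the PVT of wild-type mice, the paraventricular nucleus of the thalamus, which lies at the midline and takes part in arousal. The genes were taken by name from the deposited count table: C1qa, C1qb, C1qc, C1ra, C1s1, C3, C4b, Serping1 and C3ar1. All 9 were found among 21899 genes in the table. The 9 RNA-seq libraries formed 3 groups of 3: LPS (lipopolysaccharide, an outer membrane molecule of Gram-negative bacteria sensed by innate immune cells) at 7 days, LPS at 1 day, and phosphate-buffered saline (PBS) at 1 day, each given into the peritoneal cavity. No PBS group at 7 days was analysed here, so day and treatment cannot be told apart where LPS at 7 days is set against PBS. The labels give neither sex nor age. They also leave unsaid whether each library is a different mouse, so the p-values speak of the spread among these libraries, part of which may be technical.

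Complement is a cascade of plasma and tissue proteins that marks surfaces for removal. In its classical pathway C1q binds a target, the proteases C1r and C1s bound to it cleave C4, and the resulting convertase cleaves C3, whose fragment C3a acts on the receptor C3aR. In mouse brain C1q is made mostly by microglia, whereas C4 and C3 are also made by astrocytes and other cells, and the pathway is known for tagging synapses.

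The libraries held 13211422 to 17210526 gene counts. Levels are given in CPM (counts scaled to library size with TMM factors, mean ± SD, n = 3 per group) and a gene changed when its edgeR quasi-likelihood p-value, adjusted over 14837 tested genes, was under 0.05. The groups also differed in ways other than LPS. The summed level of 4 Y-linked genes was 90.5 to 102 CPM at LPS 7 days and 81.5 to 85.2 CPM at LPS 1 day, against 0 to 0.0588 CPM in PBS, where 1 count was seen in all. A list of 10 cerebellar genes summed to 1935 to 1948 CPM at LPS 7 days, 343 to 362 CPM at LPS 1 day and 439 to 459 CPM in PBS. A list of 8 striatal genes summed to 775 to 793, 1090 to 1109 and 1792 to 1842 CPM in the same groups. All 11 genes of a thalamic and PVT list were detected (688 to 697 CPM at LPS 7 days, 618 to 645 CPM at LPS 1 day and 770 to 775 CPM in PBS). The part of sex-linked and regional differences in the results that follow was not tested, and Y-linked level and LPS cannot be told apart.

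Transcripts of all 9 genes rose 1 day after LPS, and for all 9 the LPS 1 day libraries lay above the PBS libraries. Across all tested genes 24.9% rose, 24.2% fell and in 27.4% the LPS 1 day libraries lay above PBS without overlap, so a rise alone was common among tested genes. The sizes were less common: 8 of the 9 genes had a log2 fold change of at least 1, as did 4.19% of tested genes, and the median over the 9 was 1.42 against -0.01 over all genes. C1s1 and C3ar1 passed the count minimum through the LPS libraries, since 1 PBS library in each case reached it. Both genes are included in the totals against PBS in this paragraph, and for them a level above PBS was favoured by that filter. At 7 days 3 of the 9 genes were higher than in PBS (C4b, Serping1 and C3ar1), none was lower, and 6 did not pass, where 16.8% of tested genes rose and 18.9% fell. The same 3 genes had no overlap between LPS 7 days and PBS, as did 21.5% of tested genes in that direction. The median over all 9 was 0.44 against 0.00 over all tested genes. All 9 genes were lower at LPS 7 days than at LPS 1 day, with no overlap for any of them and a median of -1.11, where 29.1% of tested genes fell, 27.5% rose and 31.1% lay lower without overlap. Against a null hypothesis of a change of up to 1.5-fold, a test added after the values were seen, 9 members passed at LPS 1 day against PBS (3.44% of tested genes higher), 1 at LPS 7 days against PBS (2.31% higher) and 7 at LPS 7 days against LPS 1 day (4.76% lower). The comparisons with PBS share the same 3 PBS libraries.

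**Figure D1:**
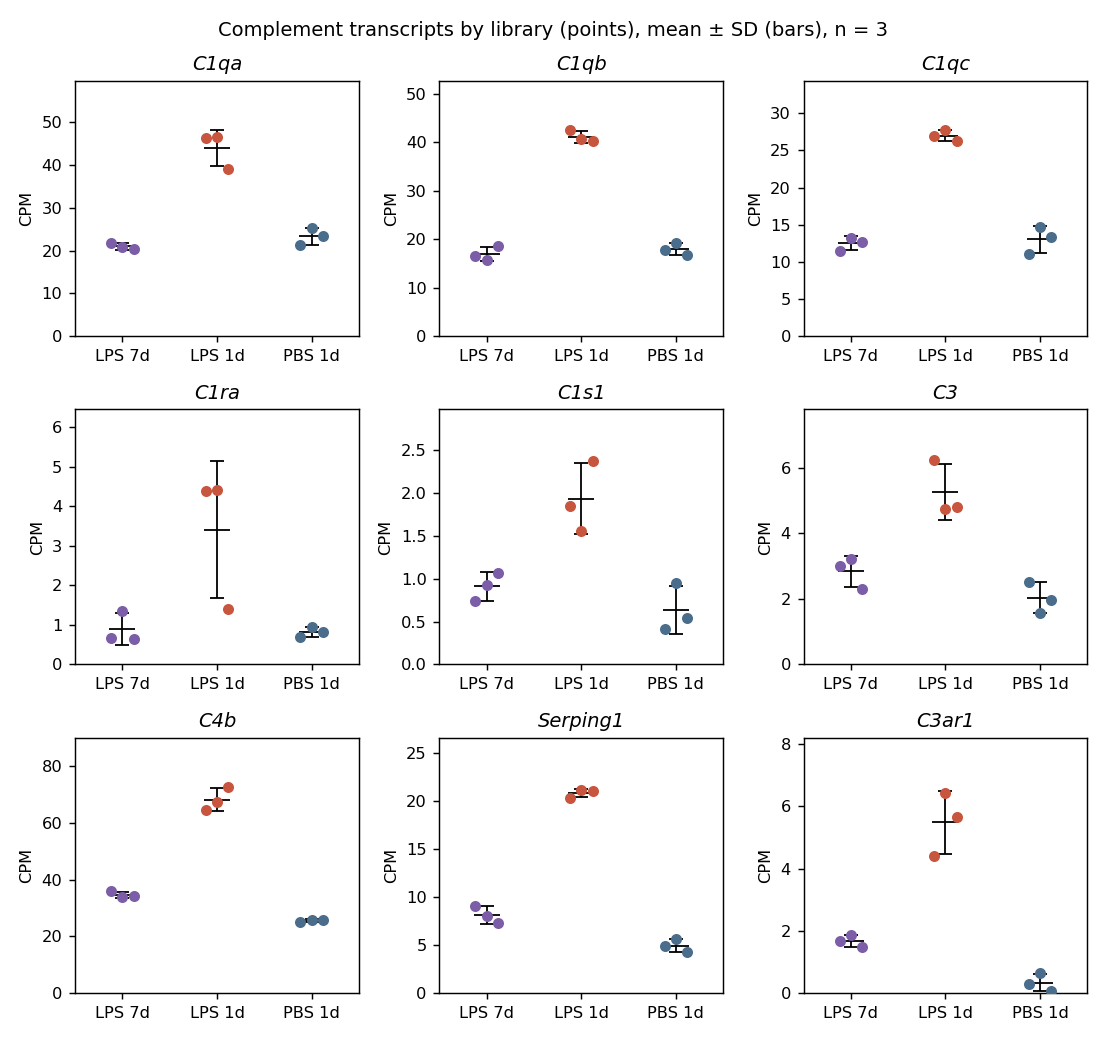
Level of each of the 9 complement genes in CPM (vertical axis, from 0) in the 3 libraries of LPS 7d, LPS 1d and PBS 1d; points are libraries and bars the mean and SD. In every panel the LPS 1d points lie above those of PBS 1d, and for C4b, Serping1 and C3ar1 the LPS 7d points also lie above all PBS 1d points.

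The C1q chains, which together form the recognition molecule of the classical pathway, rose 1 day after LPS, to 1.89 to 2.28 times the PBS level, and did not differ detectably from PBS at 7 days. C1qa (ENSMUSG00000036887), the A chain, had 21.8, 20.9 and 20.3 CPM at LPS 7 days, 46.3, 46.7 and 39.1 CPM at LPS 1 day and 21.2, 25.2 and 23.4 CPM in PBS. C1qb (ENSMUSG00000036905), the B chain, had 16.5, 15.7 and 18.6 CPM at LPS 7 days, 42.5, 40.6 and 40.3 CPM at LPS 1 day and 17.9, 19.3 and 16.8 CPM in PBS. C1qc (ENSMUSG00000036896), the C chain, had 11.5, 13.3 and 12.7 CPM at LPS 7 days, 26.9, 27.8 and 26.3 CPM at LPS 1 day and 11.1, 14.7 and 13.3 CPM in PBS. For each chain the 3 LPS 1 day libraries were the highest of all 9, and the LPS 7 day and PBS libraries overlapped. Against PBS at 1 day the log2 fold changes were 0.92 ± 0.08 for C1qa, 1.19 ± 0.08 for C1qb and 1.05 ± 0.10 for C1qc (SE, edgeR quasi-likelihood adjusted p = 1.06e-13, 3.41e-17 and 8.03e-13). At 7 days none of the chains passed against PBS (edgeR adjusted p = 0.189, 0.515 and 0.719), and the 95% intervals of the log2 fold change ran from -0.32 to 0.03 for C1qa, from -0.27 to 0.10 for C1qb and from -0.27 to 0.16 for C1qc. Relative to LPS 1 day, the chains at LPS 7 days fell by 1.07 ± 0.08, 1.27 ± 0.08 and 1.11 ± 0.10 on the log2 scale (edgeR adjusted p = 3.04e-16, 9.19e-19 and 5.52e-14).

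The C1q genes lie side by side on the minus strand of chromosome 4 within 18.7 kb (136607440 to 136626114, GRCm39), with no other gene of the table between them. In FPKM, which divide the count by gene length, C1qa had the highest mean of the 9 genes in each group, with 20.6 ± 0.921 FPKM at LPS 7 days, 41.6 ± 4.06 FPKM at LPS 1 day and 20.2, 24.2 and 22.5 FPKM in the PBS libraries. C1qb followed with 15.9 ± 1.34, 37.2 ± 1.09 and 16.4 ± 1.18 FPKM in the same groups, and C1qc with 6.60 ± 0.450, 13.7 ± 0.390 and 6.71 ± 0.957 FPKM. The libraries of C1qa and C1qb overlapped at LPS 1 day and not in the other groups. The ratio of C1qa to C1qb per length was 1.14, 1.20 and 1.01 at LPS 1 day, against 1.24, 1.37 and 1.46 in PBS. These ratios did not overlap, and the log2 difference was -0.28 (two-sided exact permutation p = 0.1, below which 3 libraries against 3 cannot go; 0.225 adjusted over 27 ratio tests). For C1qc to C1qb the groups overlapped in all 3 comparisons (exact permutation p = 0.4 for LPS 1 day against PBS, 1 for LPS 7 days against PBS and 0.2 for LPS 7 days against LPS 1 day).

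Promoters from RefSeq (GRCm38.p6, a build other than that of the count table) were at hand for 6 of the 9 genes, in 7 windows of 300 bases from 250 before to 50 after the start. Those of C1qb and C1qc are shown because the chains moved together. Capitals mark matches on either strand to short patterns: GGG and CC with any 5 bases between them (NF-kB), TTCNNNGAA (GAS), GAAA repeated after any 2 bases (ISRE), TTGCNNCAA (C/EBP), GAGGAA (ETS and PU.1) and ACANNNTGT (glucocorticoid receptor).
C1qb, chr4:136886151-136886450, minus strand: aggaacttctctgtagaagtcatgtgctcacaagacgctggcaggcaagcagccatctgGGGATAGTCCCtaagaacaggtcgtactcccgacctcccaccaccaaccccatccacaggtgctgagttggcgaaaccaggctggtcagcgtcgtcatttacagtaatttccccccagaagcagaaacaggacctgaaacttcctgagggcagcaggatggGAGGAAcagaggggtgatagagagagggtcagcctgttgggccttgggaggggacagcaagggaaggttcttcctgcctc
C1qc, chr4:136892865-136893164, minus strand: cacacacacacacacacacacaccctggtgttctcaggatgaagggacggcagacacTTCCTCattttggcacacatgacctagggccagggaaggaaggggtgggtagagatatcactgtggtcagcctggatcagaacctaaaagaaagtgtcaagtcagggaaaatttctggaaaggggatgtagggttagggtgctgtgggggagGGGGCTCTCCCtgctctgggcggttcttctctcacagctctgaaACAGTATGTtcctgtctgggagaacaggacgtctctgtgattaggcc
Both windows held the NF-kB pattern, which 50.8% of all 32851 promoters hold, and the ETS and PU.1 pattern, which 28.3% hold; in both, NF-kB matches that overlap each other show as 1 capital run. The glucocorticoid receptor pattern, held by 6.85% of promoters, was in the C1qc window. A match is a string of letters and was not measured as a bound site.

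C1q transcripts were set beside genes that mark microglia, their main source in mouse brain. The summed level of the 3 chains was 50.4 ± 1.05 CPM at LPS 7 days, 112 ± 5.65 CPM at LPS 1 day and 54.3 ± 4.54 CPM in PBS. The summed level of 15 microglial identity genes was 319 ± 3.72, 303 ± 1.15 and 328 ± 11.8 CPM in the same groups. At LPS 1 day 2 of these 15 genes rose, 6 fell and 7 did not pass against PBS, with a median log2 fold change of -0.06, where 24.9% of all tested genes rose and 24.2% fell. Csf1r, the receptor for a growth factor of microglia, had 90.3 ± 0.834 CPM at LPS 7 days, 100.05 ± 1.77 CPM at LPS 1 day and 85.0 ± 4.89 CPM in PBS, and rose by 0.24 ± 0.05 at LPS 1 day against PBS (edgeR adjusted p = 0.000109). Cx3cr1, the fractalkine receptor, was lower at LPS 1 day, with 36.2 ± 0.666 CPM against 43.4 ± 4.92 CPM in PBS (log2 fold change -0.26 ± 0.07, edgeR adjusted p = 0.00191). Per length, the ratio of the C1q chains to the 15 genes was 1.10, 1.08 and 1.00 at LPS 1 day, against 0.432, 0.479 and 0.473 in PBS. The groups did not overlap and the ratio at LPS 1 day was 2.30 times that in PBS (exact permutation p = 0.1, the smallest possible; 0.225 adjusted over the 27 ratio tests). Since 6 of the 15 genes fell and 2 rose, the ratio also holds changes of the list and is no fixed measure per microglial cell. At LPS 7 days the ratio was 0.441, 0.451 and 0.460, which overlapped PBS (exact permutation p = 0.6). In whole tissue, fewer cells of a type and less RNA per cell cannot be told apart.

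**Figure D2:**
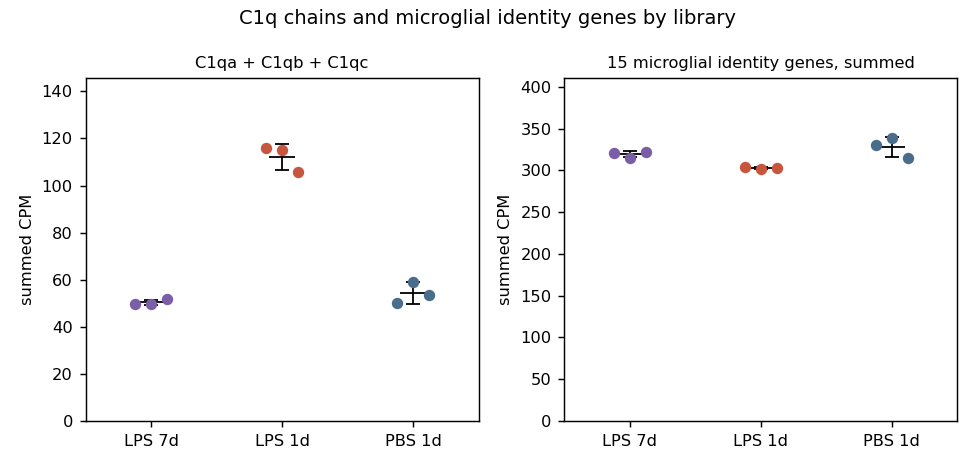
Summed CPM (vertical axes, from 0) of the C1q chains (left) and of 15 microglial identity genes (right) in the libraries of LPS 7d, LPS 1d and PBS 1d; points are libraries and bars the mean and SD. The C1q sum is 112 ± 5.65 CPM at LPS 1d against 54.3 ± 4.54 CPM in PBS 1d, whereas the microglial sum is 303 ± 1.15 against 328 ± 11.8 CPM. Of the 15 microglial genes 2 rose and 6 fell at LPS 1d against PBS 1d, so their sum hides moves of single genes.

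Transcripts of the proteases of the C1 complex, C1r and C1s, rested on few counts and rose 1 day after LPS. C1ra (ENSMUSG00000055172), which encodes C1r, had 11, 22 and 11 counts at LPS 7 days, 57, 71 and 23 counts at LPS 1 day and 12, 15 and 12 counts in PBS (0.894 ± 0.401, 3.41 ± 1.74 and 0.824 ± 0.122 CPM). LPS 1 day replicate 3, at 1.40 CPM, stood well below the 4.39 and 4.42 CPM of the other LPS 1 day libraries and just above the 1.36 CPM of LPS 7 day replicate 2. The log2 fold change of C1ra at LPS 1 day against PBS was 2.02 ± 0.36 (edgeR adjusted p = 5.9e-06), and 2.41 without LPS 1 day replicate 3. C1s1 (ENSMUSG00000038521), which encodes C1s, had 12, 15 and 18 counts at LPS 7 days, 24, 25 and 39 counts at LPS 1 day and 7, 15 and 8 counts in PBS (0.909 ± 0.165, 1.93 ± 0.413 and 0.635 ± 0.280 CPM). Its highest library was LPS 1 day replicate 3, the one that was lowest of its group for C1ra. C1s1 had a log2 fold change of 1.60 ± 0.38 at LPS 1 day against PBS (edgeR adjusted p = 0.000391). It passed the count minimum through the LPS libraries, so its comparisons with PBS are a description and not an independent test.

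At 7 days neither protease gene passed against PBS, with log2 fold changes of 0.12 ± 0.44 for C1ra and 0.52 ± 0.42 for C1s1 (edgeR adjusted p = 0.868 and 0.363). At this depth their 95% intervals were wide, from -0.77 to 1.00 and from -0.33 to 1.37. Relative to LPS 1 day, LPS 7 days was lower for C1ra (-1.91 ± 0.35, edgeR adjusted p = 7.4e-06) and for C1s1 (-1.08 ± 0.35, edgeR adjusted p = 0.00726). Without LPS 1 day replicate 3 the C1s1 value was -0.89 and no longer passed (edgeR adjusted p = 0.0643). C1ra and C1s1 face each other on chromosome 6, with 6.9 kb between their ends. Both have near copies: C1rb had no count in any library, and C1s2 had 16 counts at LPS 7 days, 22 at LPS 1 day and 29 in PBS. The treatment of reads shared between copies was not stated, so the levels of C1ra, C1s1 and C4b, which also has the near copy C4a, are uncertain to that extent.

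Serping1 (ENSMUSG00000023224, chromosome 2, 84595731 to 84605788), which encodes C1 inhibitor, the protease inhibitor that blocks C1r and C1s, rose at 1 day and was still above PBS at 7 days. It had 9.07, 8.02 and 7.28 CPM at LPS 7 days, 20.3, 21.1 and 21.0 CPM at LPS 1 day and 4.88, 5.63 and 4.23 CPM in PBS. No 2 groups overlapped. At LPS 1 day its level was 4.22 times that in PBS (log2 fold change 2.08 ± 0.13, edgeR adjusted p = 1.69e-19), and at LPS 7 days 1.65 times (0.72 ± 0.14, edgeR adjusted p = 3.9e-05). LPS 7 days was lower than LPS 1 day by 1.36 on the log2 scale (-1.36 ± 0.12, edgeR adjusted p = 1.26e-14). The ratio of Serping1 to its target protease gene C1s1 overlapped between groups in all 3 comparisons (exact permutation p = 0.3, 0.7 and 0.4 for LPS 1 day against PBS, LPS 7 days against PBS and LPS 7 days against LPS 1 day).

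C4b (ENSMUSG00000073418, chromosome 17, 34947354 to 34962856), which encodes the C4 that C1s cleaves, rose at 1 day and was still above PBS at 7 days. It had 35.9, 33.8 and 34.1 CPM at LPS 7 days, 64.5, 67.5 and 72.6 CPM at LPS 1 day and 25.1, 25.8 and 25.8 CPM in PBS. The groups were fully separated, with LPS 7 days between the others. At LPS 1 day the log2 fold change against PBS was 1.42 ± 0.07 (edgeR adjusted p = 9.15e-24) and at LPS 7 days 0.44 ± 0.07 (edgeR adjusted p = 1.38e-06), or 1.36 times the PBS level. LPS 7 days stood at -0.98 ± 0.06 against LPS 1 day (edgeR adjusted p = 1.22e-18).

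C3 (ENSMUSG00000024164, chromosome 17, 57510970 to 57535136), the component on which all complement pathways converge, rose at 1 day. It had 49, 52 and 39 counts at LPS 7 days, 81, 76 and 79 counts at LPS 1 day and 43, 25 and 29 counts in PBS (2.84 ± 0.472, 5.26 ± 0.851 and 2.03 ± 0.474 CPM). The LPS 1 day libraries were the highest, and LPS 7 day and PBS libraries overlapped. Against PBS the log2 fold change was 1.35 ± 0.22 at LPS 1 day (edgeR adjusted p = 1.73e-06) and 0.47 ± 0.24 at LPS 7 days, which did not pass (edgeR adjusted p = 0.127, 95% interval -0.01 to 0.96). LPS 7 days was lower than LPS 1 day (-0.88 ± 0.21, edgeR adjusted p = 0.000387). Scaled by length, C3 at LPS 1 day had 1.01 ± 0.162 FPKM, against 11.8 ± 0.706 FPKM for C4b.

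C3ar1 (ENSMUSG00000040552, chromosome 6, 122824097 to 122833120), which encodes the receptor for the C3 fragment C3a and is expressed by microglia and other myeloid cells, had the largest fold change of the 9 genes in both comparisons with PBS. It had 27, 30 and 25 counts at LPS 7 days, 57, 103 and 93 counts at LPS 1 day and 5, 10 and 1 counts in PBS. In CPM these were 1.66 ± 0.186, 5.49 ± 1.02 and 0.332 ± 0.284, and no 2 groups overlapped. The log2 fold change at LPS 1 day against PBS was 4.01 ± 0.34 (16.1-fold, edgeR adjusted p = 3.68e-14), which ranked 45 among 14837 tested genes. At LPS 7 days it was 2.28 ± 0.41 against PBS (4.84-fold, edgeR adjusted p = 1.06e-05), rank 110, and -1.73 ± 0.25 against LPS 1 day (edgeR adjusted p = 6.3e-08). The folds rest on 16 PBS counts in all. C3ar1 passed the count minimum through the LPS libraries, where it was higher, since 1 PBS library reached it. Its p-values and ranks against PBS are therefore a description and not an independent test. Without PBS replicate 2 the log2 fold changes against PBS were 4.81 at LPS 1 day and 3.08 at LPS 7 days, and without PBS replicate 3 they were 3.58 and 1.85.

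The windows around the starts of C3 and C3ar1 are shown as those of the ligand source and its receptor, with the same patterns in capitals.
C3, chr17:57228087-57228386, minus strand: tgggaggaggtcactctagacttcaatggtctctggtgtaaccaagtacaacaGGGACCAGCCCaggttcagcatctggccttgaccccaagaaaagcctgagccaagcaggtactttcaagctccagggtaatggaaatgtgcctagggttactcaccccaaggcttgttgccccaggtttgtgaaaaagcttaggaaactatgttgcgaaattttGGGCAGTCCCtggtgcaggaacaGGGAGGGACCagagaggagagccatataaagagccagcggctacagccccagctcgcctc
C3ar1, chr6:122856108-122856407, minus strand: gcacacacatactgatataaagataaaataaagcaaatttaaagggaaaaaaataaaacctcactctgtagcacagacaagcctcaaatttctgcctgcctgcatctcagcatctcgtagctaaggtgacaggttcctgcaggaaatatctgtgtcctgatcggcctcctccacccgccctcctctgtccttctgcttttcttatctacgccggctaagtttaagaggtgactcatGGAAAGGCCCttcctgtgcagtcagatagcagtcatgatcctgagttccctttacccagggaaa
Both held the NF-kB pattern, at 3 separate places in C3, where 1 capital run covers overlapping matches, and at 1 place in C3ar1. Neither held the GAS, ISRE or C/EBP patterns, which 8.3%, 3.44% and 2.08% of all promoters hold. No match says only that these letters are not in this window.

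The ratio of receptor to ligand transcripts, C3ar1 to C3 per length, was 0.658, 0.689 and 0.766 at LPS 7 days, 0.841, 1.62 and 1.41 at LPS 1 day and 0.139, 0.478 and 0.0412 in PBS. All 3 groups were separate (exact permutation p = 0.1 for each comparison, the smallest possible; 0.225 adjusted over the 27 ratio tests). In C4b, Serping1 and C3ar1 a part of the 1 day difference remained at 7 days. In CPM, the excess over PBS at LPS 7 days was 21.2% of that at LPS 1 day for C4b (19.7 to 22.4% on leaving out each library in turn), 20.2% for Serping1 (17.2 to 22.9%) and 25.8% for C3ar1 (23.3 to 28.3%). For C1qa, C1qb and C1qc it was -11.1% (-16.9 to -6.18%), -4.33% (-7.92 to -1.44%) and -3.89% (-11.6 to 1.92%), where the C1qc value changed sign without PBS replicate 2. For C1ra, C1s1 and C3, which did not pass at 7 days, it was 2.71% (-6.26 to 7.43%), 21.2% (13.7 to 29.7%) and 25.1% (19.4 to 33.3%). The difference between these genes was looked at within libraries, in ratios chosen after the values were seen. C4b to C1qb per length was 0.415, 0.411 and 0.349 at LPS 7 days, against 0.268, 0.255 and 0.294 in PBS, and Serping1 to C1qb was 0.257, 0.239 and 0.183, against 0.128, 0.137 and 0.118. Neither ratio overlapped between LPS 7 days and PBS (exact permutation p = 0.1 each, 0.225 adjusted over the 27 ratio tests). At LPS 1 day C4b to C1qb was 0.290, 0.318 and 0.344, which overlapped PBS and lay below LPS 7 days. Serping1 to C1qb was 0.223, 0.243 and 0.244 at LPS 1 day, which overlapped LPS 7 days (exact permutation p = 0.8). Its shift from PBS was thus already present at 1 day.

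**Figure D3:**
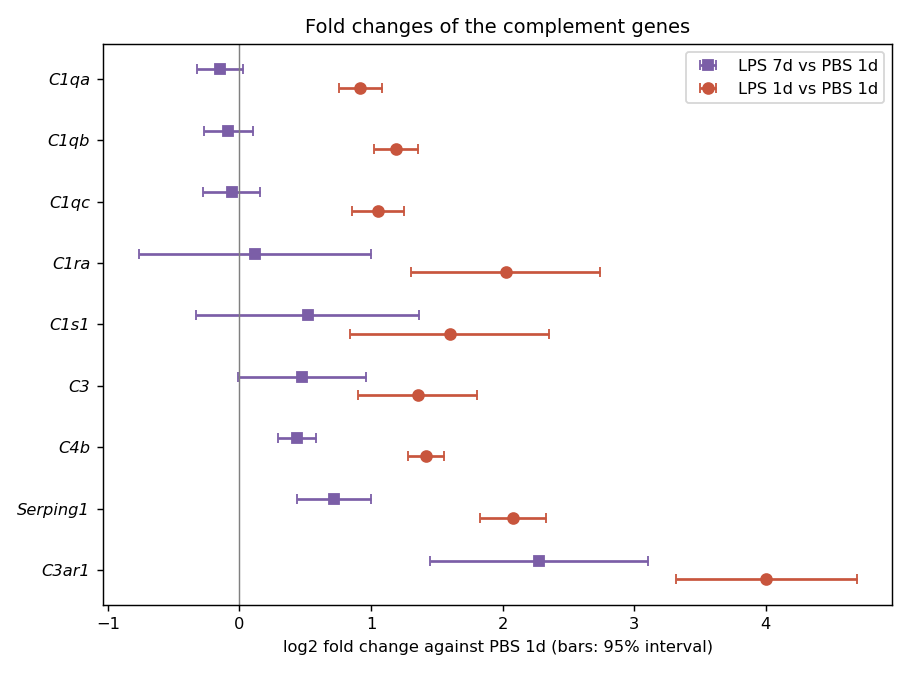
Log2 fold change (horizontal axis) of the 9 complement genes for LPS 7d (squares) and LPS 1d (circles), each against the same PBS 1d libraries, with 95% intervals. All 9 intervals at LPS 1d lie above 0; at LPS 7d those of C4b, Serping1 and C3ar1 do, and those of the C1q chains reach from below 0 to above it.

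The LPS 7 day differences go with other shifts in the same libraries. Among lists of genes of other cell types, 10 meningeal and fibroblast genes summed to 175 to 187 CPM at LPS 7 days, 244 to 257 CPM at LPS 1 day and 167 to 172 CPM in PBS. The most abundant of them, Pdgfra, had 74.5 ± 4.22, 107 ± 2.37 and 85.8 ± 3.35 CPM in the same groups. The sum thus leans on 1 gene and is no measure of meningeal tissue alone. At LPS 1 day 7 of the 9 tested genes of this list rose against PBS and 2 did not pass, where 24.9% of all tested genes rose, for example Dcn, a matrix proteoglycan, at 49.6 ± 0.503 CPM against 27.4 ± 1.41 CPM in PBS (edgeR adjusted p = 1.16e-14). The 10 choroid plexus genes summed to 364 to 374 CPM at LPS 7 days, 505 to 523 CPM at LPS 1 day and 472 to 535 CPM in PBS. Most of each sum was Ttr, with 316 ± 7.13, 392 ± 6.64 and 389 ± 34.6 CPM in the same groups. At LPS 7 days against PBS 8 of the 10 fell and 2 did not pass, with a median log2 fold change of -0.98. In that comparison 18.9% of all tested genes fell. The 10 astrocyte identity genes summed to 4455 to 4539, 4422 to 4459 and 4003 to 4108 CPM at LPS 7 days, LPS 1 day and PBS. The 10 endothelial genes summed to 375 to 394, 360 to 371 and 315 to 323 CPM. These sums hide opposite moves. In the same order Slc1a2 had 1629 ± 24.1, 2228 ± 32.4 and 1918 ± 44.2 CPM, and Aldoc had 1042 ± 20.2, 678 ± 11.7 and 650 ± 11.1 CPM. At LPS 1 day against PBS 6 astrocyte genes rose and 3 fell, and 5 endothelial genes rose and 4 fell. Across all tested genes 24.9% rose and 24.2% fell. Markers of blood monocytes and neutrophils were low in all groups. The 10 genes summed to 0.532 to 0.987 CPM at LPS 7 days, 1.62 to 2.24 CPM at LPS 1 day and 1.14 to 1.29 CPM in PBS. The LPS 1 day sums lay above those of PBS without overlap. Of the most abundant, Ly6c2 had 0.482 ± 0.119 CPM at LPS 1 day against 0.522 ± 0.109 CPM in PBS. Plac8 had 0.416 ± 0.0718 CPM against 0.119 ± 0.155 CPM. The 8 liver genes summed to 0.925 CPM at most. The part of these cell types in the complement results was not tested.

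Beyond the 9 genes, 54 other complement genes were in the table and 31 could be tested. At LPS 1 day against PBS 11 rose, 3 fell and 17 did not pass, with a median log2 fold change of 0.05, where 49.1% of all tested genes changed. C5ar1 is among the 11, though it passed the count minimum through the LPS 1 day libraries. At LPS 7 days against PBS 5 rose, 7 fell and 19 did not pass (median 0.08), where 35.6% of all tested genes changed. At LPS 7 days against LPS 1 day 5 rose, 13 fell and 13 did not pass (median -0.20), where 56.6% changed. Among genes that start the cascade 4 of 13 could be tested. Colec12, a scavenger receptor with a collectin-like domain, rose by 0.36 ± 0.10 at LPS 1 day (edgeR adjusted p = 0.00201), and Masp2, a protease of the lectin pathway, was at 0.67 ± 0.23 for LPS 7 days against LPS 1 day (edgeR adjusted p = 0.0123). In the alternative pathway Cfd had no count, Cfb had 2, 9 and 6 counts over the libraries of LPS 7 days, LPS 1 day and PBS, and properdin, Cfp, which stabilises the convertase, was the gene tested. Cfp had 15.6 ± 1.23 CPM at LPS 7 days, 16.4 ± 1.74 CPM at LPS 1 day and 11.5 ± 1.56 CPM in PBS, and was higher than PBS at 1 day (0.52 ± 0.11, edgeR adjusted p = 0.000135) and at 7 days (0.44 ± 0.11, edgeR adjusted p = 0.00137). Of 7 terminal pathway genes, which form the membrane attack complex, 2 could be tested, and C7 fell at LPS 7 days, with 0.629 ± 0.162 CPM against 1.31 ± 0.403 CPM in PBS (edgeR adjusted p = 0.0336).

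Of the 16 regulators tested, 5 rose, 2 fell and 9 did not pass at LPS 1 day against PBS, where 24.9% of all tested genes rose and 24.2% fell. At LPS 7 days against PBS 3 rose, 6 fell and 7 did not pass, where 16.8% of all tested genes rose and 18.9% fell. Several of the regulators are neuronal genes with complement control domains. Csmd1 had 68.6 ± 2.65, 127 ± 4.13 and 101 ± 9.52 CPM at LPS 7 days, LPS 1 day and PBS, and its relative Sez6 had 251 ± 12.6, 341 ± 15.2 and 416 ± 23.3 CPM. Both were lower than PBS at 7 days (-0.56 ± 0.05 and -0.73 ± 0.04, edgeR adjusted p = 2.63e-12 and 9.19e-21), in libraries that also differ in cerebellar and striatal genes. Sez6l rose by 0.35 ± 0.04 at LPS 1 day (edgeR adjusted p = 2.75e-11) and Vtn, vitronectin, an inhibitor of the terminal complex, by 0.38 ± 0.06 at LPS 7 days against PBS (edgeR adjusted p = 1.92e-07).

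Of 8 receptors tested, 4 rose, 1 fell and 3 did not pass at LPS 1 day against PBS, where 24.9% of all tested genes rose and 24.2% fell. Cd93, a C-type lectin of endothelium and myeloid cells once described as a C1q receptor, had 11.5 ± 1.08 CPM at LPS 7 days, 24.2 ± 1.76 CPM at LPS 1 day and 10.1 ± 0.728 CPM in PBS. It rose by 1.26 ± 0.10 at LPS 1 day (edgeR adjusted p = 1.62e-14), and LPS 7 days was lower than LPS 1 day (-1.07 ± 0.10, edgeR adjusted p = 5.21e-13). Itgb2, the beta chain of the receptors for fragments of C3b, rose by 0.68 ± 0.16 (edgeR adjusted p = 0.000287) and C1qbp by 0.36 ± 0.07 (edgeR adjusted p = 4.35e-05) at LPS 1 day. Calr, calreticulin, fell by 0.13 ± 0.04 at that time (edgeR adjusted p = 0.00349). C5ar1, the receptor for the C5 fragment C5a, was singled out after its values were seen, as the counterpart of C3ar1. It had 9, 45 and 12 counts over the libraries of LPS 7 days, LPS 1 day and PBS. It passed the count minimum through the LPS 1 day libraries, where it was highest. A difference was favoured by that filter, so the C5ar1 values are a description with no test. C5ar1 is nevertheless included in the 4 receptors counted above as risen.

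**Figure D4:**
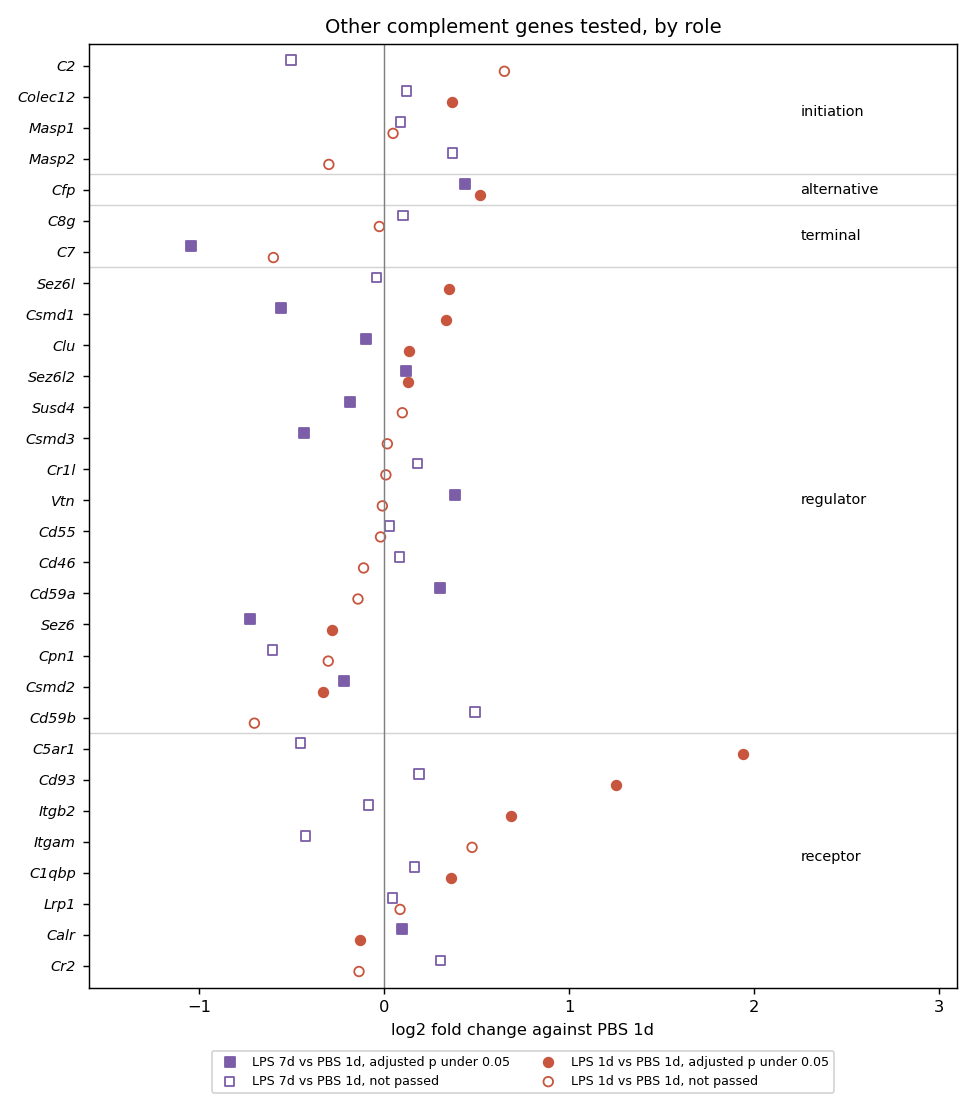
Log2 fold change against PBS 1d (horizontal axis) of other complement genes tested, in rows grouped by role, for LPS 7d (squares) and LPS 1d (circles); filled symbols have an edgeR adjusted p under 0.05. Cd93 lies above 1 at LPS 1d, as does C5ar1, which passed the count minimum through the LPS 1d libraries, and at LPS 7d no filled square lies above 0.5.

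Genes whose levels over the 9 libraries were most like those of each complement gene were ranked by the root mean square difference of log2 CPM, each gene centred on its own mean, among 13702 named genes of at least 1 CPM. For C4b the nearest was Gfap, the intermediate filament of astrocytes (difference 0.0812), followed by Il4ra and Frmpd1 (0.114 and 0.116). For C1qa they were Slc6a20a, Abca1 and Orc6 (0.0968, 0.0973 and 0.0994), for C1qb Stat3, Aldh1a2 and Col4a1 (0.103, 0.113 and 0.118), and for C1qc Slc35b3 and Col4a1 (0.104 and 0.110). The C1q chains differed from each other by 0.113 to 0.162 on this measure. C3 lay nearest to Rac2, Itih2 and Nfkbiz (0.138, 0.166 and 0.193) and Serping1 to Apod, Smtnl2 and Arhgap11a (0.186, 0.208 and 0.229). C1s1 lay nearest to Rnf223, Fcer2a and Mgp (0.160, 0.216 and 0.247). No gene lay close to C1ra or C3ar1, whose nearest were Phyhd1 (0.399) and Phf11d (0.630). Most of this likeness is the difference between groups, and it is a description without a test.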

How the data were processed

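RNA-seq of PVT tissue gave 9 libraries. The authors deposited read counts per gene, FPKM (fragments per kilobase, scaled to the library total) and gene lengths in 1 table. The submitters' processing notes name TopHat2, HISAT2, HTSeq and GRCm39; their versions, the annotation and strandedness were not stated. FPKM recomputed from the deposited counts differed by 1.6e-07 at most. Positions, strands and lengths, other deposited values, were used unchanged.

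Counts were fitted with edgeR 4.0.16 (R 4.3.3) quasi-likelihood, 1 mean for each group over the 9 libraries, TMM factors (0.983 to 1.03) and filterByExpr (minimum count 10), which kept 14837 of 21899 genes. Tests were two-sided with Benjamini-Hochberg adjustment over all tested genes at 0.05. The SE is the log2 fold change divided by the root of F, and with 6 residual and 43.4 prior degrees of freedom the spread of a gene was drawn toward the trend. Ratios used counts per length and exact permutation tests (SciPy 1.17.1). CPM of sums used the same TMM factors, and log2 CPM for likeness used a prior count of 2.

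All replicates of a group agreed closely (Spearman's rho across genes 0.991 to 0.992) and none was merged, since their counts differed beyond sampling noise, with chi-square at 2.01 to 3.62 per degree of freedom. Such an excess cannot tell different mice from repeated libraries of the same RNA. The common coefficient of variation between libraries in the fit was 4.15%, so the p-values may rest largely on technical spread. The 9 members and the gene lists were chosen with earlier results of these data known. Named were all members, per complement list and comparison the 3 called genes with the smallest adjusted p, up to 2 of the most abundant genes per marker list and the 3 nearest genes per member; a few genes that this rule names are counted in the totals and not reported here. The method was tested on simulated counts of independent libraries with 1 common spread for all genes. That setting does not cover genes with a larger spread or libraries that share RNA. DESeq2 1.42.0, other scalings, no filter, a replicate block, autosomes alone, only the groups compared and leaving out each library were the alternatives.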

Additional observations from a re-analysis of the deposited data

How the results depend on the processing

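Of 459 alternative values for the log2 fold changes of the 9 genes in the 3 comparisons, 455 kept their direction and their side of the threshold. The exceptions came from leaving out a library: C1s1 at LPS 7 days against LPS 1 day did not pass without LPS 1 day replicate 3, and 2 genes that had not passed changed sign at LPS 7 days against PBS, C1qc (-0.17 to 0.039 over the left-out libraries) and C1ra (-0.31 to 0.30). The 9, 3 and 9 members called at LPS 1 day against PBS, LPS 7 days against PBS and LPS 7 days against LPS 1 day were 9, 3 and 9 under DESeq2, under each scaling, without the filter, on autosomes and with only the groups compared, and 9, 3 and 8 to 9 with 1 library left out. Among ratios tested without a call, C1qa to C1qb (-0.12 to 0.031), C1qc to C1qb (-0.077 to 0.10) and Serping1 to C1s1 (-0.090 to 0.41) changed sign at LPS 7 days against PBS, C1ra to C1s1 (-0.21 to 0.92) at LPS 1 day against PBS and Serping1 to C1qb (-0.18 to 0.065) at LPS 7 days against LPS 1 day.

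Testing for changes beyond 1.5-fold, an alternative chosen after seeing the data, called 647, 539 and 1256 genes for the 3 comparisons, against 7289, 5287 and 8399. It called 9, 1 and 7 members, with C3ar1 the one at LPS 7 days against PBS, and 2, 1 and 4 other complement genes, against 14, 12 and 18; a stricter null hypothesis calls fewer genes by construction. With library size scaling 57.8% of the genes called at LPS 7 days against PBS were higher, against 47.1% with TMM. The fit without a count filter had infinite prior degrees of freedom, so its p-values rest on the pooled spread.

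Same-numbered replicates did not deviate together (correlations -0.02 to 0.03 over 9 pairs, -0.04 to 0.06 over 18 pairs of different number), so the labels' numbers were not taken as a pairing. With the replicate block 7144, 5139 and 8270 genes and 9, 3 and 9 members were called. Depth limits C1ra, C1s1, C3 and C3ar1, with 16 to 97 counts each over the PBS libraries. Intervals assume that the spread of 3 libraries per group is representative.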
